A study of Arabidopsis thaliana with 6 samples.

Results

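Of the 15828 Arabidopsis thaliana genes with reads assigned to a Col-0 or a Cvi-0 allele, 4674 had 10 or more such allele reads in each of 6 embryo libraries, and for these the ratio of Col-0 to Cvi-0 reads was compared between 3 stages of embryo development. Membership rested on read depth alone, not on the ratio. The embryos were hybrids of 2 inbred lines, Col-0 and Cvi-0, and every library carried both genomes. They came from Col-0 mothers pollinated by Cvi-0 (Col-0 x Cvi-0, mother first by the usual convention) or from the reverse cross (Cvi-0 x Col-0). Each cross was sampled at the 1-cell/2-cell stage about 40 h after pollination, at the 8-cell stage at 64 h and at about the 32-cell stage at 78 h. A library was 1 pool of 20 hand-dissected, washed embryos, each of the 6 groups had 1 library, and RNA was amplified linearly. The reciprocal crosses therefore served as the repeats of a stage, and the spread left between crosses may be technical. The edgeR p-values below rest mostly on spread borrowed from the other genes, and less on each gene's own spread between crosses. A small p-value is thus not by itself a measure of how closely the crosses matched in that gene. In bulk RNA of this kind, fewer cells of a type and less RNA per cell cannot be told apart.

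In a hybrid both alleles of a gene sit in the same nuclei and meet the same transcription factors. An unequal RNA level that follows the accession, whichever parent gave it, is called a cis difference, because it is carried by the allele itself, in its promoter, enhancers or transcript. A cis difference can depend on stage where the regulators that read the differing sequence are present at one time and not at another. Early Arabidopsis embryos pass from the zygote through the formation of the outer protoderm layer, while transcript populations change and maternal tissue around them is easily carried along in dissection.

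The 4674 genes held 94.5 to 96.4% of the allele reads of a library, which numbered 1233554 to 1723728. The median gene had 60 to 95 allele reads per library. The Col-0 share of these reads was 53.0 to 54.0% in all 6 libraries, and the median log2 ratio of Col-0 to Cvi-0 reads lay between 0.10 and 0.14, so that no stage was shifted as a whole. Genes at the edge of the depth rule were noisy on both sides of it. The median absolute difference in log2 ratio between the 32-cell and the 1-cell/2-cell stage was 0.73 for the 194 genes with 9 reads in their lowest library, which were left out, and 0.77 for the 167 genes with 10, which were kept. Markers of the seed coat, a maternal tissue, summed to 53.8 to 147 RPM (reads per 1000000 mapped reads) per library over 13 genes, with 0 to 3 of them at 0. The markers at 0 in any library were TT2, TT8, TT10 and TTG2. Endosperm markers summed to 12.2 to 52.2 RPM over 10 genes, with 2 to 5 of them at 0, among them MEA, PHE1, ZOU, MINI3, IKU2 and FWA. The endosperm sum was lower at each later stage in both crosses, the seed coat sum was highest in 32-cell embryos of Cvi-0 mothers, and the part of both in the results below was not tested. Transcripts of the embryo were present throughout: LEC1, the histone-fold regulator of embryo identity, had 182 to 241 RPM as a mean of each stage, and WOX2, a homeobox gene of the apical embryo lineage, had 28.3 to 96.3 RPM.

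The Col-0 to Cvi-0 ratio differed between stages in 3 of the 4674 genes (0.0642% of genes tested) by edgeR's quasi-likelihood F test with Benjamini-Hochberg adjustment, fitted to both allele counts of all 6 libraries with 1 parent-of-origin effect. All 3 had the same adjusted p of 0.047. They were AT5G02540, which encodes a protein with an NAD(P)-binding Rossmann fold, MIPS2, a myo-inositol-1-phosphate synthase that makes the inositol phosphate from which inositol, membrane lipids and phytate are built, and AT1G10190, which encodes a protein of unknown function of the DUF239 family. At an unadjusted p below 0.05, 263 genes (5.63%) passed. Between the 1-cell/2-cell and the 8-cell stage 1 gene was called (0.0214%), between the 8-cell and the 32-cell stage 0 genes (0%) and between the first and the last stage 3 genes (0.0642%). The 3 comprised 1 gene that moved towards Col-0 (0.0214%) and 2 towards Cvi-0 (0.0428%). The unadjusted counts were 318 (6.8%), 162 (3.47%) and 273 (5.84%). By direction, towards Col-0 and towards Cvi-0, they were 155 (3.32%) and 163 (3.49%), then 70 (1.5%) and 92 (1.97%), then 138 (2.95%) and 135 (2.89%). DESeq2 also called 0 genes between the 8-cell and the 32-cell stage, and limma called 0 between any stages. Left out in turn, the 1-cell/2-cell libraries gave 18 (Col-0 x Cvi-0) and 13 (Cvi-0 x Col-0) calls over all stages, each 8-cell library gave 0 and each 32-cell library gave 8.

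The stretch before the annotated start of each called gene is shown because these genes carry the only calls between stages of this fit. Each is 250 bases of the Col-0 reference (RefSeq, TAIR10.1), 5' to 3' on the gene's strand, at chr5:568175-568424 (+) for AT5G02540, chr2:9454301-9454550 (-) for MIPS2 and chr1:3345633-3345882 (-) for AT1G10190, with matches on either strand to the motifs named next in capitals.
AT5G02540: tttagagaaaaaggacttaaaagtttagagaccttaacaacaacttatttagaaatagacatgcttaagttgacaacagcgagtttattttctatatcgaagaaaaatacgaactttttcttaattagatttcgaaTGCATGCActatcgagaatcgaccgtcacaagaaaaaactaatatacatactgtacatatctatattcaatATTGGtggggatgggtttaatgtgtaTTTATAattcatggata
MIPS2: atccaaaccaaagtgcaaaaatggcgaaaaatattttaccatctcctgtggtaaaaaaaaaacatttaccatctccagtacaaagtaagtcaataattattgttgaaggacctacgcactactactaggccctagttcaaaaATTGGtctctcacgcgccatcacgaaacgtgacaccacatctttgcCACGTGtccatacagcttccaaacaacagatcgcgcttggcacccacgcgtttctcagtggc
AT1G10190: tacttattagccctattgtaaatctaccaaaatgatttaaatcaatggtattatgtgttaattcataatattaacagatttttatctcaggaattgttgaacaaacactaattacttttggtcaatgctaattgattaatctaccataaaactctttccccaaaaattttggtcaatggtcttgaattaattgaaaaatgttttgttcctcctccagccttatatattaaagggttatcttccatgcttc
The motifs searched on both strands were the TATA box TATAAA, the CCAAT box CCAAT, the G-box CACGTG, the RY core CATGCA read by B3 factors such as ABI3, and the auxin response core TGTCTC. The AT5G02540 window held 1 match to the TATA box, 1 CCAAT box and 2 RY cores that overlap each other. The TATA match lies on the strand opposite the gene, so it is not in the gene's own orientation. The MIPS2 window held 1 CCAAT box and 1 G-box, and lies partly within AT2G22241, a gene annotated on the other strand. The AT1G10190 window held none of the 5 motifs, which says only that these letters are not in it. Among 27443 windows of the same length before protein-coding genes, 47.3% held a TATA box, 46.0% a CCAAT box, 6.49% a G-box, 8.43% an RY core and 10.9% the auxin core. These shares count matches on either strand. The Cvi-0 sequence of these windows was not used here, so the matches describe the Col-0 allele alone.

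AT5G02540 (chromosome 5, 568425 to 570973, plus strand, TAIR10.1) was read almost wholly from Col-0 at the 1-cell/2-cell stage and about equally from both alleles afterwards. At the 1-cell/2-cell stage it had 87 Col-0 and 7 Cvi-0 reads in Col-0 x Cvi-0 embryos and 78 and 2 in Cvi-0 x Col-0 embryos. At the 8-cell stage it had 142 and 139 reads, and 259 and 317, in the same order of crosses. At the 32-cell stage it had 193 and 116, and 339 and 381. Both early libraries lay far above the later 4, which did not overlap with them. The Col-0 share was 92.6% (95% Clopper-Pearson interval 85.3 to 97.0) and 97.5% (91.3 to 99.7) early, and 45.0 to 62.5% later; such intervals hold only the error of counting, because amplification copies molecules. The fitted log2 ratio went from 4.16 ± 0.46 (SE) to -0.13 ± 0.28 and 0.27 ± 0.28. Its difference was -4.29 ± 0.55 from the first stage to the second (edgeR, adjusted p = 0.0223) and -3.90 ± 0.55 from the first to the last (adjusted p = 0.0208). From the 8-cell to the 32-cell stage the log2 difference was 0.40 ± 0.40 (95% interval -0.48 to 1.27).

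Both alleles of AT5G02540 stood higher at the 8-cell stage than before, the Cvi-0 allele by far the more. Per 1000000 allele reads the Col-0 allele went from 64.5 to 145, a factor of 2.25, and the Cvi-0 allele from 3.53 to 164, a factor of 46.3, as means of both crosses. The whole gene went from 22.3 ± 7.22 RPM (SD, n = 2 crosses) to 90.1 ± 31.8 and 94.8 ± 38.4 RPM. All 4 variant positions with 10 or more reads at both stages moved towards Cvi-0, with log2 differences of -6.70 to -2.70. Without either 8-cell library the call between the first stages was lost, with adjusted p of 1.0 (without Col-0 x Cvi-0) and 0.332 (without Cvi-0 x Col-0). The call between the first and last stage was lost without either 8-cell library (0.258 and 0.28) and without 32-cell embryos of Cvi-0 mothers (0.0633).

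MIPS2 (AT2G22240, chromosome 2, 9451605 to 9454300, minus strand) went from a Col-0 excess to near balance in steps, with less of its RNA at each later stage. It had 1371 Col-0 and 356 Cvi-0 reads and 1677 and 414 reads at the 1-cell/2-cell stage, Col-0 x Cvi-0 first. There were 418 and 189 and 1084 and 492 reads at the 8-cell stage. At the 32-cell stage 60 and 117 and 309 and 257 remained. The Col-0 share was thus 79.4 and 80.2%, then 68.9 and 68.8%, then 33.9% (27.0 to 41.4) and 54.6% (50.4 to 58.8). The crosses were nearly equal at the first and second stage and apart at the last, and no stage overlapped with another. The fitted log2 ratio was 1.98 ± 0.21, 1.13 ± 0.21 and -0.28 ± 0.23, and its difference between the first and last stage was -2.26 ± 0.30 (edgeR, adjusted p = 0.0208). Neither single step passed, with adjusted p of 0.618 and 0.481.

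Both MIPS2 alleles stood lower at the end, the Col-0 allele more so. Per 1000000 allele reads the Col-0 allele went from 1189 to 536 to 108 and the Cvi-0 allele from 300.5 to 243 to 110.3. RNA of the whole gene was 173 ± 21.2, 101 ± 47.1 and 29.4 ± 21.8 RPM (SD, n = 2 crosses). All 9 variant positions with enough reads moved towards Cvi-0, with log2 differences of -3.22 to -1.54. MIPS2 shares 19 bases with AT2G22230 and 57 with AT2G22241 on the other strand. Libraries kept the strand, but whether counting used it is not given in the sources used here. The call was lost without either 8-cell library, at adjusted p of 0.172 (without Col-0 x Cvi-0) and 0.185 (without Cvi-0 x Col-0).

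AT1G10190 (chromosome 1, 3343686 to 3345632, minus strand) was read almost wholly from Cvi-0 at the first and second stage and from both alleles at the last. It had 8 Col-0 and 165 Cvi-0 reads in 1-cell/2-cell Col-0 x Cvi-0 embryos and 0 and 247 in Cvi-0 x Col-0 embryos, where the Clopper-Pearson interval of 0 of 247 reads reaches 1.48%. At the 8-cell stage there were 13 and 152 reads, and 2 and 44. At the 32-cell stage there were 125 and 123 reads in Col-0 x Cvi-0 embryos, but 37 and 158 in Cvi-0 x Col-0 embryos. The 32-cell libraries were the highest of the 6 in Col-0 share, at 50.4% (44.0 to 56.8) and 19.0% (13.7 to 25.2), and did not overlap with the other stages. The fitted log2 ratio was -5.97 ± 0.55, -4.40 ± 0.56 and -1.04 ± 0.37, a difference of 4.93 ± 0.69 between the first and last stage (edgeR, adjusted p = 0.0208). The Cvi-0 side was still higher in 1 of the 2 late crosses, so the gene was not counted as balanced there.

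Per 1000000 allele reads the Col-0 allele of AT1G10190 went from 3.15 to 5.95 to 48.9 and the Cvi-0 allele from 161 to 76.5 to 83.4. The whole gene had 17.9 ± 5.65, 7.56 ± 5.44 and 13.8 ± 2.58 RPM (SD, n = 2 crosses). All 7 variant positions with enough reads moved towards Col-0, by 3.27 to 6.06 on the log2 scale. Without either 8-cell library the adjusted p was 0.172 (without Col-0 x Cvi-0) and 0.185 (without Cvi-0 x Col-0), and without 32-cell embryos of Col-0 mothers it was 0.0988. Without 1-cell/2-cell embryos of Col-0 mothers, which held all 8 early Col-0 reads, the log2 difference was 9.18.

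**Figure D1:**
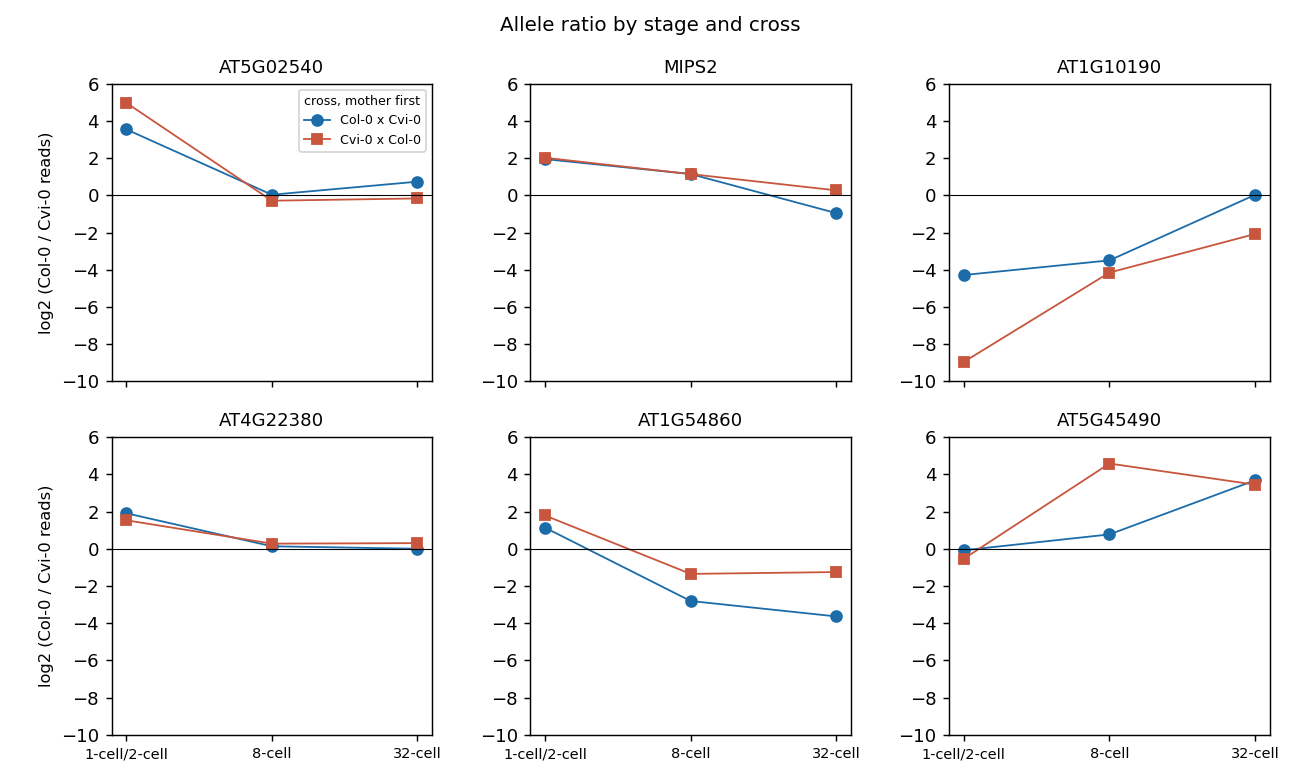
Log2 ratio of Col-0 to Cvi-0 reads (y axis, with 0.5 added to each count) at the 3 stages (x axis) for 6 genes, with 1 point per library and 1 line per cross. AT5G02540, MIPS2 and AT4G22380 come down to near 0, AT1G10190 comes up from the Cvi-0 side, AT1G54860 crosses 0 after the first stage and AT5G45490 leaves 0.

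**Figure D2:**
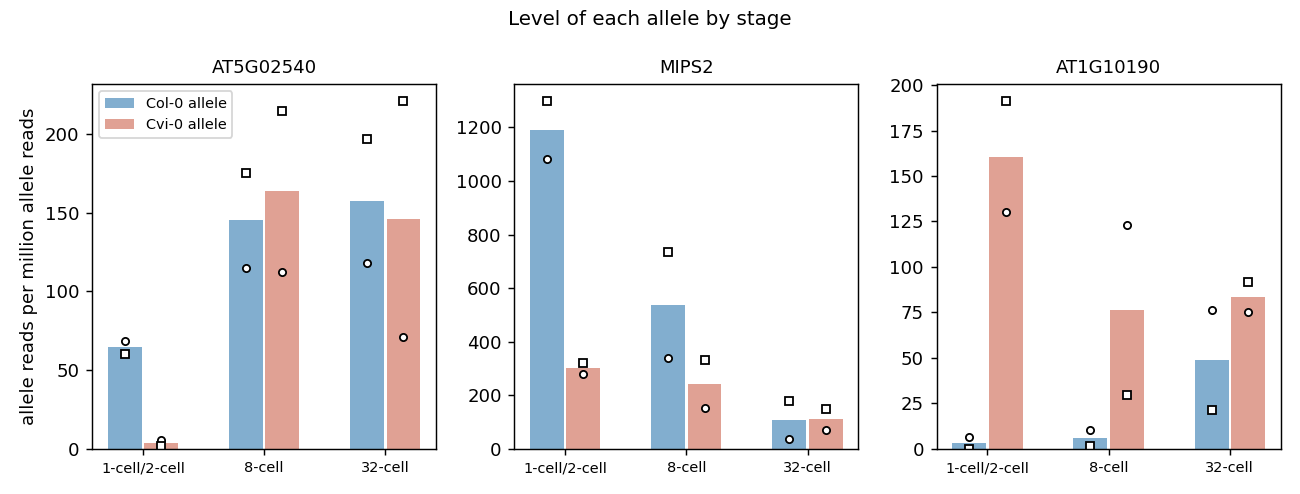
Level of each allele, in reads per 1000000 allele reads of the library (y axis), by stage (x axis) for the 3 genes called. Bars are means of both crosses, circles Col-0 x Cvi-0 and squares Cvi-0 x Col-0; the Cvi-0 allele of AT5G02540 goes from 3.53 to 164, the Col-0 allele of MIPS2 from 1189 to 108 and the Col-0 allele of AT1G10190 from 3.15 to 48.9.

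Several genes stopped short of the threshold with the same sign of change in both crosses. AT4G22380, a gene of the L7Ae family of ribosomal proteins, had 437 Col-0 and 116 Cvi-0 reads and 420 and 145 at the 1-cell/2-cell stage. It had 637 and 581 and 477 and 394 at the second stage, and 826 and 826 and 603 and 489 at the last. Both early ratios lay above all later ones. The log2 difference was -1.57 ± 0.26 between the first and last stage (edgeR, adjusted p = 0.0659). Its Cvi-0 allele was 3.87 times as high at the end as at the start and its Col-0 allele 1.28 times. Genes of this family have close copies, and reads that matched more than 1 place had been removed.

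Other genes that moved towards Cvi-0 without passing were AT3G18560, of unknown function, and XTH16, an enzyme that cuts and rejoins cell wall xyloglucan. XTH16 had 138 Col-0 and 154 Cvi-0 and 200 and 169 reads at the first stage, 58 and 19 and 78 and 25 at the second, and 10 and 19 and 32 and 51 at the last. Its ratio was near balance, then on the Col-0 side in both crosses, then on the Cvi-0 side. The log2 difference from the 8-cell to the 32-cell stage was -2.41 ± 0.51 for XTH16 and -3.75 ± 0.78 for AT3G18560 (edgeR, adjusted p = 0.481 for both).

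Towards Col-0 the nearest genes were AT2G18910, a hydroxyproline-rich glycoprotein gene, and AT3G28500, a 60S acidic ribosomal protein gene. AT2G18910 had 66 Col-0 and 293 Cvi-0 and 115 and 260 reads at the first stage, 104 and 239 and 391 and 276 at the second, and 508 and 217 and 443 and 307 at the last, so that both first libraries were on the Cvi-0 side and both last ones on the Col-0 side. AT3G28500 was on the Col-0 side in every library, and more so late. It had 2992 and 1097 and 3101 and 1111 reads at the first stage, 1056 and 477 and 1142 and 251 at the second, and 485 and 97 and 883 and 77 at the last. The log2 difference from first to last was 1.45 ± 0.27 for AT3G28500 and 2.53 ± 0.47 for AT2G18910 (edgeR, adjusted p = 0.0818 for both). With 1 library left out it ran from 0.92 to 1.99 for AT3G28500. For AT2G18910 it was 1.52 without 32-cell embryos of Col-0 mothers (adjusted p = 0.708) and 3.57 without those of Cvi-0 mothers (0.000698). ELIP2, an early light-induced protein of chloroplasts, was on the Cvi-0 side at the 8-cell stage with 224 and 670 and 226 and 557 reads, and near balance at the 32-cell stage with 602 and 664 and 347 and 379. Its log2 difference between those stages was 1.31 ± 0.25 (adjusted p = 0.481).

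AT2G04378, a beta-galactosidase related gene, had a log2 difference of 1.40 ± 0.27 between the first and second stage (edgeR, adjusted p = 0.181). It shares 1126 bases with AT2G04380 on the other strand, so its reads are uncertain. AT5G47350, a hydrolase gene, followed the mother more than the accession. In Cvi-0 x Col-0 embryos it had 0 Col-0 and 165 Cvi-0, 2 and 164, and 2 and 1691 reads at successive stages. In Col-0 x Cvi-0 embryos it had 51 and 62, 45 and 2, and 68 and 1. The crosses were thus far apart at each stage, and the log2 difference of 6.08 ± 1.05 at the 8-cell stage (adjusted p = 0.1) came with 45.1% Col-0 reads in 1-cell/2-cell embryos of Col-0 mothers. That difference was 2.87 without the 1-cell/2-cell embryos of Col-0 mothers, 9.30 without the 8-cell ones and 1.19 without the parent term, and 2 of 4 variant positions shared its sign. For AT2G04378 the difference ran from 0.92 to 1.88 with 1 library left out.

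The courses of the other genes were described by a rule on each library's ratio, with no test. A stage was called skewed where both crosses were at least 2-fold on the same allele's side, and balanced where both were within 2-fold and their mean log2 ratio within 0.5. Balance at the first stage was followed by skew at the last in 31 genes (0.663%), 23 to Col-0 and 8 to Cvi-0. Skew at the first stage gave way to balance at the last in 138 genes (2.95%), 69 on each side. Among these, AT5G45430 and AT5G45428 had the same mean ratios at all 3 stages, as had AT5G60548 and GRIK2. The 138 are thus not all separate observations. In 6 genes (0.128%) the skew turned from one allele to the other between stages, and in 16 genes (0.342%) it was seen at the 8-cell stage with balance before and after. Skew to the same allele at all stages was kept in 236 genes (5.05%), 188 to Col-0 and 48 to Cvi-0, and 838 genes (17.9%) were balanced at all 3 stages.

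Genes whose skew vanished and genes whose skew appeared were shallow, with a median of 22.5 and 23 allele reads in the lowest library against 58.5 for genes with kept skew. With at least 30 reads in each library there were 12 appearing, 52 vanishing, 1 turning and 9 transient genes. With every library of a gene thinned at random to the reads of its lowest, an alternative chosen after seeing the data, there were 55 appearing genes, 15 of them among the 31, and 144 vanishing genes, 76 of them among the 138. Of the 236 kept genes 216 were kept after thinning, of the 6 turning genes 3 turned and of the 16 transient genes 5 were transient.

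The levels of each allele in these classes are given as a description, since the same reads chose the genes and the lower allele, with fewer reads, is the noisier. Per 1000000 allele reads in vanishing genes, the lower allele alone was at least 2-fold higher at the last stage in 72 of 138 genes, the higher allele alone was at least 2-fold lower in 39, both in 5 and neither in 22. In appearing genes the lower allele alone was at least 2-fold lower in 20 of 31 genes and the higher allele alone at least 2-fold higher in 4, both in 1 and neither in 6. The median log2 change of whole-gene RPM between the first and last stage was 0.06 in vanishing and -0.03 in appearing genes, beside -0.09 over all 4674. At the 8-cell stage 30 of the 138 vanishing genes were already balanced, 15 were still skewed to the same allele, 2 were skewed to the other allele and 91 were neither. Of the 31 appearing genes, 6 were still balanced then and 1 was already skewed.

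**Figure D3:**
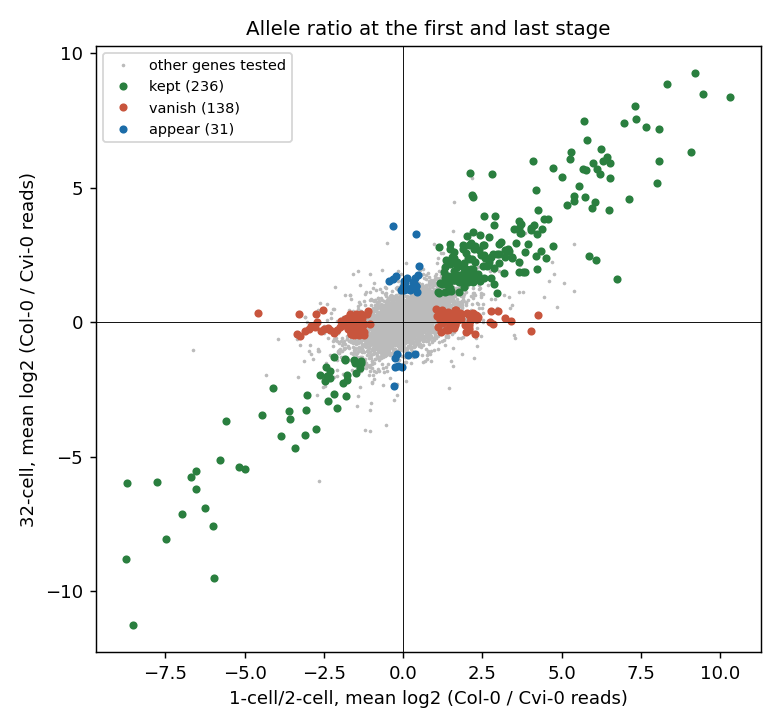
Mean log2 ratio of Col-0 to Cvi-0 reads over both crosses at the 1-cell/2-cell stage (x axis) and the 32-cell stage (y axis), 1 point per gene. The 236 kept genes follow the diagonal to both ends, while the 138 vanishing genes lie along the horizontal axis and the 31 appearing genes along the vertical axis, by the rule that chose them.

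Among genes whose skew appeared, those with the smallest p were AT5G45490, of the P-loop nucleotide hydrolases, and AT1G29790, a methyltransferase gene. AT5G45490 had 17 Col-0 and 18 Cvi-0 and 15 and 22 reads at the first stage, 14 and 8 and 131 and 5 at the second, and 57 and 4 and 92 and 8 at the last. Both late libraries were at a Col-0 share of 92.0 to 93.4%, and both early ones were below 50%. The log2 difference between first and last was 3.89 ± 1.01 (edgeR, adjusted p = 0.411), and the gene shares 2017 bases with a long noncoding RNA on the same strand. AT1G29790 had 71 and 65 and 89 and 81 reads at the first stage, 58 and 29 and 146 and 54 at the second, and 135 and 52 and 222 and 58 at the last, with a log2 difference of 1.53 ± 0.44 (adjusted p = 0.452). Its Col-0 share was higher at each later stage in both crosses. Its variant positions differed widely at the first stage, from 2 Col-0 and 17 Cvi-0 reads to 28 and 0. Its balance there is thus a mix of positions. Of 12 positions with enough reads, 10 moved towards Col-0.

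The next were NAKR1, a metal-binding domain protein, SEP1, here the stress enhanced protein 1 and not the floral MADS factor, GLCAK, a glucuronokinase that feeds sugar into cell wall precursors, and AT4G33380, a tRNA-modifying enzyme gene. Their fitted log2 differences between first and last stage were -1.48, 1.59, 2.08 and -1.56. None passed, with adjusted p of 0.796 to 0.94 by edgeR. NAKR1 and AT4G33380 moved towards Cvi-0, and SEP1 and GLCAK towards Col-0, with 13 to 286 reads per library. Of the 2 SEP1 variant positions with enough reads, 1 differed by 0.11 on the log2 scale into the 8-cell stage. The other differed by 4.09.

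Besides AT5G02540, MIPS2 and AT4G22380, the vanishing genes with the smallest p were AT5G19290, AT4G38090 and AT1G71410. AT5G19290, a hydrolase gene, had 320 and 73 and 469 and 159 reads at the first stage, 630 and 298 and 486 and 430 at the second, and 1411 and 1183 and 999 and 759 at the last. The ratio came down in both crosses, with a log2 difference of -1.52 ± 0.28 between first and last stage (edgeR, adjusted p = 0.0818). Its RNA was 45.6, 72.3 and 147 RPM at successive stages. AT4G38090 and AT1G71410 were also among the 6 turning genes.

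The turning gene with the smallest p was AT1G54860, which encodes a membrane glycoprotein with a GPI anchor. It had 95 Col-0 and 43 Cvi-0 and 53 and 15 reads at the 1-cell/2-cell stage. Later it had 16 and 115 and 44 and 113 (8-cell), then 3 and 43 and 27 and 65 (32-cell). The Col-0 share was above 50% in both first libraries and below 30% in the later 4. The fitted log2 ratio was 1.53 ± 0.44, -2.10 ± 0.43 and -2.32 ± 0.49, and the difference between first and last stage -3.84 ± 0.66 (edgeR, adjusted p = 0.0708). All 7 variant positions with enough reads moved the same way.

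In the other turning genes 1 stage stood against the rest or reads were few. NSP5, a nitrile-specifier protein of glucosinolate breakdown, had 21 and 168 and 10 and 70 reads at the first stage, 11 and 5 and 10 and 3 at the second, and 14 and 49 and 9 and 18 at the last. Its 8-cell libraries alone leaned to Col-0, at 0.991 RPM for the gene. AT4G38090, a gene with a ribosomal protein S5 domain, had 26 and 6 and 39 and 2 reads, then 0 and 11 and 6 and 21, then 22 and 16 and 20 and 15, so it went from Col-0 to Cvi-0 and back to balance. AT1G71410 took the same course with 33 and 12 and 45 and 14, 2 and 24 and 19 and 55, and 18 and 25 and 48 and 33 reads. AT2G36885, a translation initiation factor gene, and AT5G13310, of unknown function, went from Cvi-0 at the first stage to Col-0 at a later one, with 12 to 108 reads per library. AT2G36885 had 3 and 9 and 3 and 25 reads at the first stage and 53 and 22 and 59 and 23 at the last. None of these 5 passed the F test over stages, with adjusted p of 0.252 to 0.871 by edgeR.

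Transient skew at the 8-cell stage was led by AT5G35180, whose product carries a DUF1336 domain. It had 15 and 15 and 32 and 16 reads at the first stage, 89 and 9 and 31 and 3 at the second, and 20 and 33 and 24 and 18 at the last. The 8-cell libraries were 90.8 and 91.2% Col-0, and the other 4 lay lower without overlap. The log2 difference was 2.91 ± 0.82 into the 8-cell stage and -3.57 ± 0.81 out of it (edgeR, adjusted p = 0.517 and 0.481). At the 2 variant positions with enough reads, both crosses together had 107 and 4 and 13 and 7 reads at the 8-cell stage. At the 32-cell stage these positions had 19 and 4 and 21 and 47. How far the change reflects which position was read was not tested. AT3G15940, a glycosyltransferase gene, and AT3G09000, a proline-rich protein gene, leaned to Cvi-0 at that stage, with fitted log2 ratios of -2.04 and -1.66. AT4G38980, BGLU42, a beta-glucosidase, and NEK1, a NIMA-related kinase, leaned to Col-0, with 1.80, 1.84 and 2.85.

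At single stages, by the same fit, the alleles differed in 612 genes (13.1%) at the 1-cell/2-cell stage, 425 (9.09%) higher from Col-0 and 187 (4%) from Cvi-0. There were 571 (12.2%) among 8-cell embryos, 409 (8.75%) and 162 (3.47%) by allele, and 402 (8.6%) among 32-cell embryos, 291 (6.23%) and 111 (2.37%). Of the 846 genes called at 1 or more stages, 296 were called for the same allele at all 3, 234 to Col-0 and 62 to Cvi-0, and 765 had a mean ratio on the same side at all 3. The 1-cell/2-cell and 8-cell calls shared 375 genes with the same allele higher (61.3% of the first and 65.7% of the second) and 1 with opposite alleles. The 8-cell and 32-cell calls shared 336 (58.8 and 83.6%) and 0 with opposite alleles. The 3 lists share the fit's parent term and spread. These counts and the 3 calls between stages come from tests of unequal precision, so they do not give the share of cis differences that change. A gene called at one stage and not at another is not thereby shown to have changed.

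In 388 genes (8.3%) the 95% interval of every stage difference lay within 2-fold, and in 1857 (39.7%) within 4-fold. The first group held 20 of the 188 genes kept on the Col-0 side, 4 of the 48 on the Cvi-0 side and 239 of the 838 balanced ones. The number was between 147 (without 8-cell embryos of Cvi-0 mothers) and 276 (without 1-cell/2-cell embryos of Col-0 mothers) when 1 library was left out. Over all 236 kept genes the mean ratio stayed within 2-fold between the first and last stage in 178, grew by 2-fold or more in 22 and shrank by as much in 36.

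ACP3, an acyl carrier protein of fatty acid synthesis in plastids, had the largest stable ratio towards Col-0. It had 498 and 41 and 504 and 38 reads at the first stage, 635 and 40 and 731 and 51 at the second, and 1083 and 85 and 936 and 64 at the last. Its log2 ratio ran from 3.59 to 3.97 over the 6 libraries, which overlapped across stages. AT2G18110, a subunit of elongation factor 1B, had fitted log2 ratios of 3.01, 2.96 and 2.91 at successive stages. AT3G52580, a ribosomal protein S11 gene, had 2.21, 2.09 and 1.97, and AT1G73490, an RNA-binding protein gene, 2.21, 1.91 and 1.78. NDPK1, a nucleoside diphosphate kinase that passes phosphate between nucleotides, had 1.95 ± 0.09, 1.88 ± 0.09 and 1.65 ± 0.09. Within some of these genes the variant positions differed widely in their ratio, so the gene's ratio is a mix of positions. At the 32-cell stage 1 position of NDPK1 had 2167 Col-0 and 3136 Cvi-0 reads, another 8683 and 30 and another 143 and 0. Positions of AT3G52580 ranged from 1045 and 849 reads to 177 and 2, and those of AT2G18110 from 268 and 95 to 223 and 0.

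On the Cvi-0 side the stable genes were AT5G27700 (ribosomal protein S21e), AT4G39200 (S25), AT4G15000 (L27e) and AT3G24250, a glycine-rich protein gene. Their fitted log2 ratios at successive stages were -1.79, -1.82 and -1.98 for AT5G27700, -1.57, -1.61 and -1.41 for AT4G39200 and -1.51, -1.39 and -1.52 for AT4G15000. AT3G24250 had 190 and 671 and 324 and 1148 reads at the first stage, 908 and 2400 and 1106 and 2912 at the second, and 1844 and 5206 and 2313 and 5641 at the last. Its log2 ratio was -1.82 in both first libraries and between -1.50 and -1.29 in the others, while its RNA went from 1556 to 5738 and 6049 RPM. The ratio thus held within 2-fold across a change of several-fold in level. AT3G24250 and AT4G15000 each rest on 1 listed variant position.

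How stable the ratio looked depended on depth. Over all 4674 genes the median absolute difference of the mean log2 ratio was 0.49 between the first and second stage, 0.41 between the second and the last and 0.45 between the first and the last. For the 462 genes with at least 300 reads in each library it was 0.18, 0.16 and 0.22, and 98.3, 98.3 and 97.6% of these genes stayed within 2-fold. Across genes, Pearson's r of the mean ratios was 0.70, 0.76 and 0.75 for the same pairs of stages over all genes, and 0.953, 0.948 and 0.922 over the deep ones, as a description. The stages share variant positions and mapping, but no library.

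Whether the crosses moved together also depended on depth. Between the first and second stage, 362 genes (7.74%) moved by 2-fold or more in the same direction in both crosses and 308 (6.59%) in opposite directions. From the 8-cell to the 32-cell stage the counts were 240 and 163, and from first to last 298 and 242. A shift in the same direction in both crosses was thus little more frequent than a shift in opposite directions between the first and second stage. From the 8-cell to the 32-cell stage the shares were 5.13 and 3.49%, and from first to last 6.38 and 5.18%. Among the 462 deepest genes the counts were 3 and 4, 5 and 0, and 6 and 1. For genes with at least 100 but under 300 reads they were 14 and 11, 7 and 0, and 16 and 4.

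**Figure D4:**
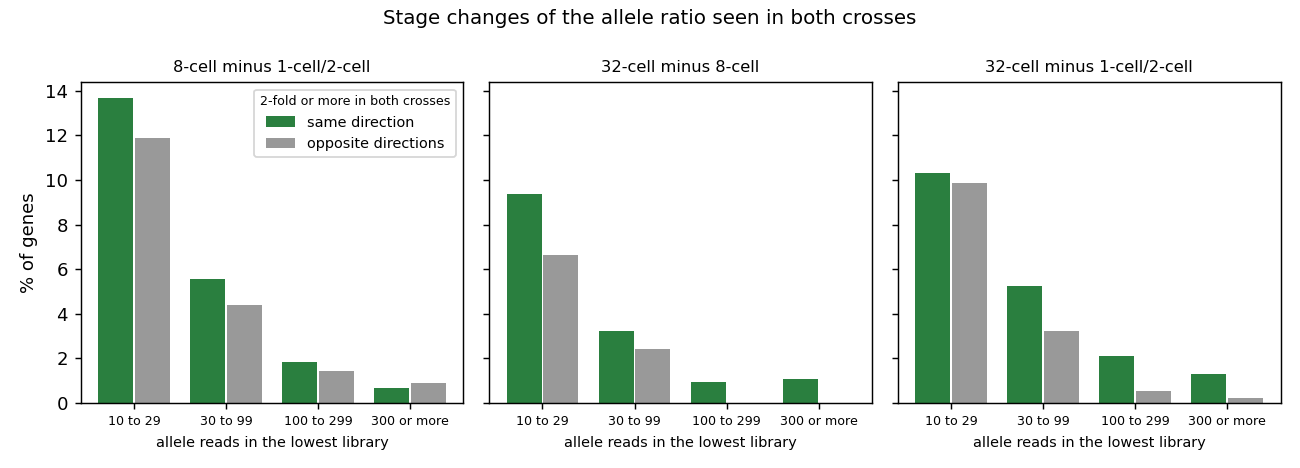
Share of genes in % (y axis) whose log2 ratio moved by 1 or more in both crosses, by allele reads in the gene's lowest library (x axis) and for each pair of stages. Green bars are moves in the same direction and grey bars in opposite directions; at 10 to 29 reads the first pair shows 13.7 and 11.9%, and at 300 or more reads the last pair shows 1.3 and 0.216%.

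Fewer genes were skewed and more were balanced at the 32-cell stage, with little of this difference among the deepest genes. Over all genes 664, 584 and 492 were skewed at successive stages, and 1834, 1942 and 2443 balanced. The gap between the crosses shrank with them. Its median was 0.66, 0.64 and 0.44 on the log2 scale, at a median of 74, 72 and 85 allele reads per gene and library. Among the 462 deepest genes 61, 56 and 54 were skewed, 295, 294 and 294 balanced, and the median gap was 0.25, 0.23 and 0.21. The part of depth and of the gap between crosses in the larger number of vanishing than appearing genes was not tested.

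**Figure D5:**
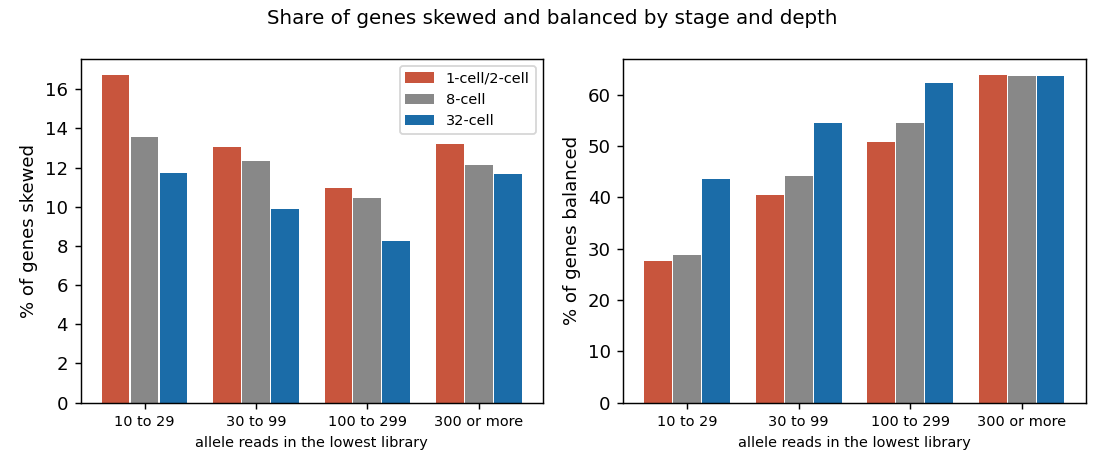
Share of genes in % that were skewed (left) and balanced (right) at each stage, by allele reads in the gene's lowest library (x axis), with 1 bar per stage. For skew the 32-cell bar is the lowest in each class. For balance it stands above the others in each class below 300 reads. At 300 or more reads the bars for balance are level, with 295, 294 and 294 of 462 genes balanced.

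Regulators of embryo patterning gave no call. Of 34 listed genes 9 had the depth to be tested. By edgeR 0 differed between stages after adjustment and 1 at an unadjusted p below 0.05, beside 0.0642% and 5.63% of all genes. The median absolute log2 difference between first and last stage was 0.55 in the list and 0.44 over all genes tested. The gene at the unadjusted threshold was WOX2, with 435 and 481 and 413 and 353 reads at the first stage, 376 and 585 and 248 and 343 at the second, and 65 and 144 and 127 and 216 at the last. Its Cvi-0 share was higher at each later stage in both crosses, with a log2 difference of -0.99 ± 0.27 (adjusted p = 0.425). PLT1, an AP2 factor of the root pole, and ATML1, a homeobox regulator of the protoderm, were stable within 2-fold. Fitted log2 ratios of ATML1 were 1.06, 0.95 and 0.84, and of PLT1 0.68, 0.67 and 0.37. PDF1, a protoderm marker, had crosses on opposite sides at the first stage, with 78 and 249 against 166 and 86 reads.

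Of the 5 maturation regulators LEC1 and ABI3 were deep enough. LEC1 was balanced at all stages, with log2 ratios between -0.03 and 0.30 in the 6 libraries. ABI3, the B3 factor of seed maturation, was among the genes whose skew vanished. It had 21 and 46 and 2 and 14 reads at the first stage, 36 and 33 and 62 and 52 at the second, and 61 and 76 and 85 and 78 at the last. The early libraries leaned to Cvi-0 and the later 4 were near balance, but the log2 difference of 1.79 ± 0.71 into the 8-cell stage did not pass (edgeR, adjusted p = 0.674).

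Cell cycle and cytokinesis genes gave 0 calls among 5 tested of 16, and 0 at an unadjusted p below 0.05. Over all genes tested the shares were 0.0642% and 5.63%. The cytokinesis syntaxin SYP111 was stable within 2-fold, with fitted log2 ratios of 0.83, 0.85 and 0.65. SYP111 shares 464 bases and AUR2 877 with a gene on the other strand. The kinesin gene HIK was balanced at all stages. CDKB2;2, a mitotic cyclin-dependent kinase, and the Aurora kinase AUR2 had log2 differences of 0.36 ± 0.51 and 0.76 ± 0.62 between first and last stage.

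Chromatin and small RNA genes gave 0 calls among 9 tested of 19, with 1 at an unadjusted p below 0.05. Over all genes tested the shares were 0.0642% and 5.63%. The gene at the unadjusted threshold in this list was AGO4, which binds small interfering RNA in RNA-directed DNA methylation. It had 480 and 785 and 633 and 774 reads at the first stage, 408 and 1061 and 714 and 1476 at the second, and 985 and 1538 and 983 and 1494 at the last. All 6 libraries were on the Cvi-0 side and both 8-cell libraries the most so, with a log2 difference of -0.71 ± 0.20 into that stage (edgeR, adjusted p = 0.517). The chromomethylase CMT3 and AGO1, the effector of microRNA, were balanced at all stages and stable within 2-fold. NRPD1B, the largest subunit of RNA polymerase V, had a log2 difference of -0.73 ± 0.34 into the 8-cell stage (adjusted p = 0.713).

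Of 13 seed coat genes 3 were deep enough, and none of the 10 endosperm genes was. TT4, chalcone synthase, had its reads from the mother in nearly every case. In Col-0 x Cvi-0 embryos it had 26 and 2, 34 and 1, and 24 and 0 reads, and in Cvi-0 x Col-0 embryos 0 and 71, 0 and 117, and 0 and 154. BAN and F3H, of the same flavonoid pathway, had 10 and 1 and 29 and 22 reads in 1-cell/2-cell Col-0 x Cvi-0 embryos and 0 and 13 and 0 and 68 in the reverse cross. For TT4 and BAN the sides of the crosses opposed each other at each stage, so their genotype ratios could not be read. F3H shares 1588 bases with a gene on the other strand. None of the 3 was called between stages by edgeR, and none at an unadjusted p below 0.05, beside 0.0642% and 5.63% of all genes.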

How the data were processed

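The authors deposited, per the file headers, whole read counts per gene over Col-0 and Cvi-0 variant positions for each cross, RPM per gene (scaled to 1000000 reads matching the genome and transcripts), and lists of variants with their reads, in 1 table per stage. Bowtie (version not given in the sources used here) mapped the reads, per the design text of the series, to TAIR10 and to a copy carrying Cvi-0 variants, and perfect, unique matches were kept; a variant unknown to that copy would lower Cvi-0 counts. The 36 other columns of per-library values were not used. Of 23874 genes, 23747 matched the TAIR10.1 annotation by locus. Libraries held 1233554 to 1723728 allele reads.

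Both allele counts of the 6 libraries (12 columns) were fitted with edgeR 4.0.16 in R 4.3.3 (glmQLFit, glmQLFTest). The terms were for library, for genotype within stage and 1 parent effect, leaving 2 residual degrees of freedom. The prior degrees of freedom, borrowed from the other genes, were more than these 2 and weighed more in each p-value. The library's allele reads were the offset for both alleles, and p-values were Benjamini-Hochberg adjusted over the 4674 genes at a threshold of 0.05. Positive differences are towards Col-0. Ratios per library had 0.5 added to each count. Alternatives used DESeq2 1.42.0, limma 3.58.1, TMM, other read minimums, no parent term and each library left out.

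Named genes were, per pair of stages and direction, up to 5 genes past the threshold, filled to 3 from the smallest p; per class up to 6 with the smallest p; 5 kept, stable genes per side with the largest ratio (4 existed on the Cvi-0 side); and up to 4 per gene list with most reads. The genes, rule and lists were chosen with earlier results of these data known.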

Additional observations from a re-analysis of the deposited data

Results flagged for a closer look

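The allele ratio of AT5G02540, MIPS2 and AT1G10190 differed between stages by a test of the difference itself (edgeR's quasi-likelihood F test over 3 stages, adjusted p = 0.047 for each). Between the first and last stage, the log2 ratio of Col-0 to Cvi-0 reads differed by -3.90 in AT5G02540, -2.26 in MIPS2 and 4.93 in AT1G10190, in the same direction in both crosses of each gene.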

How the results depend on the processing

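Counts of genes differing between any stages, 3 in the report, were 8 with DESeq2, 7 with a mean of 10 reads (6988 genes tested), 6 with 30 reads in each library (2779), 59 with no filter (15828), 0 without the parent term, 0 with limma and 0 to 18 with 1 library left out. Between the first stage and the second the count of 1 became 3 with DESeq2, 4 with 30 reads, 28 with no filter, 0 with limma and 0 to 7 with 1 library left out. From the 8-cell to the 32-cell stage the count of 0 became 14 with no filter and 0 to 6 with 1 library left out. From first to last the count of 3 became 10 with DESeq2, 10 with 30 reads, 35 with no filter, 0 without the parent term, 0 with limma and 0 to 18 with 1 library left out. Leaving out either 8-cell library gave 0 calls in each comparison, and the cause was not tested. Without the parent term the adjusted p from first to last was 0.352 for AT1G10190 and 0.0621 for AT5G02540 and MIPS2. The 388 stable genes became 58 at a limit of 1.5-fold and 147 to 276 with 1 library left out. Genes with 30 reads in each library were 12 appearing, 52 vanishing, 1 turning and 9 transient. A skew limit of 1.5-fold gave 93 appearing, 244 vanishing, 35 turning, 33 transient and 437 kept. Thinning, chosen after seeing the data, gave 55 appearing and 25 transient. For 18 differences of single named genes, 4 of them past the threshold as reported, 231 alternative values were computed. Of these values 165 kept the direction and side of the threshold, 49 newly passed it, 17 no longer did and 0 turned, all 17 in AT5G02540, MIPS2 and AT1G10190. Where a library is left out, its stage rests on 1 library, assumed to vary like the others. No paired analysis by replicate number was possible because the labels give none; the library terms of the fit already pair both alleles of a library, and its parent term is shared across stages.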
